A study of Mus musculus with 4 samples.

Results

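Open chromatin sites in gene deserts of mouse chondrocytes were described by ATAC-seq, in which a transposase cuts and tags accessible DNA. A desert site was defined as a merged peak region on chromosomes 1 to 19 or X that had a peak in at least 2 of the 4 libraries, lay outside every protein-coding gene and was more than 250 kb from the nearest end of one. This rule kept 4575 of 114130 sites with peaks in at least 2 libraries. Chondrocytes came from knee cartilage of C57BL/6 mice at postnatal day 0 to 4. The P0 group held primary chondrocytes kept in culture for less than 24 h, and the P8 group held chondrocytes carried to passage 8. Each passage had 2 libraries, called A and B here in an arbitrary order, and nothing in the labels says whether they came from separate animals or cultures, so the spread between them may be technical.

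A gene desert is a long stretch of genome without a protein-coding gene. Deserts beside genes that control development often hold enhancers, which are short elements that bind transcription factors and raise transcription of a distant gene through looping of the chromatin fibre. The desert next to Sox9, the master transcription factor of the chondrocyte, is a well known example. Cultured chondrocytes lose their cartilage program with passage and take on a fibroblast-like form. Open chromatin alone does not tell which gene a distant site serves, and the flanking genes named here give the position of a site and not its target.

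Desert sites covered 550 stretches between neighbouring protein-coding genes or between a gene and a chromosome end. The median distance to the nearest gene end was 392 kb and the largest was 2188 kb. There were 1471 sites beyond 500 kb and 304 beyond 1000 kb. Between the outermost genes of each chromosome, 444 Mb lay over 250 kb from any protein-coding gene, 17.1% of that span, and held 10.2 sites per Mb. The other 2156 Mb held 50.8 sites per Mb, 4.99 times as many. The word desert applies to protein-coding genes alone. RefSeq placed a non-coding gene over 873 desert sites (19.1%), against 13.5% of the other sites, and 771 of the 873 overlapped a long non-coding RNA (lncRNA) gene.

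The desert sites that covered a RefSeq transcript start are shown by sequence because they are the few whose DNA could be read. A window of 250 bases before to 50 after a start was overlapped by 48 desert sites, with 50 windows of 48 genes. A site is called P0-only where both P0 libraries had a peak and neither P8 library did, and P8-only in the reverse case. Of these 48 sites, 23 had peaks in all 4 libraries, 17 were P0-only and 0 were P8-only. The shares of these patterns were 32.7%, 37.7% and 6.95% of all desert sites, and 48.4%, 25.5% and 2.72% of all 114130 sites. Capitals mark the core motifs searched on both strands, TGANTCA for AP-1, TGTGGT for RUNX, GGAATG for TEAD and ACAAAG for SOX. The first 3 windows belong to the sites called different between passages by the test given below, where the third call rests on the centring. The fourth belongs to the lncRNA that hosts a microRNA cluster and the fifth to the P0-only site that covered most of a window. All are given from 5′ to 3′ on the strand of the gene, on GRCm38. Windows printed without capitals hold none of these motifs.
Gm34259, chr17:4612129-4612428, plus strand: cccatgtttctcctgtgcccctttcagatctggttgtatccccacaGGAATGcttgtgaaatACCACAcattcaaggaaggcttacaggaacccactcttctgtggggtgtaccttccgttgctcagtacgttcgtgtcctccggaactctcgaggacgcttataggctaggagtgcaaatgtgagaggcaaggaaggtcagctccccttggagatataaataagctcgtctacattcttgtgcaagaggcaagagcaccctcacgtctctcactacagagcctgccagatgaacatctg
Gm36769, chr10:56935342-56935641, minus strand: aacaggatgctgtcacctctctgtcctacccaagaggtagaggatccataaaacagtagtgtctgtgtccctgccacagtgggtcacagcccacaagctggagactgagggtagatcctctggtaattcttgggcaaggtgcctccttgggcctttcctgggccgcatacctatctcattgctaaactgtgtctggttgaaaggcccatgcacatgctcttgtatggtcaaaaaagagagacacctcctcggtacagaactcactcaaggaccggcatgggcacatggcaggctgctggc
4930579D09Rik, chr6:143535459-143535758, minus strand: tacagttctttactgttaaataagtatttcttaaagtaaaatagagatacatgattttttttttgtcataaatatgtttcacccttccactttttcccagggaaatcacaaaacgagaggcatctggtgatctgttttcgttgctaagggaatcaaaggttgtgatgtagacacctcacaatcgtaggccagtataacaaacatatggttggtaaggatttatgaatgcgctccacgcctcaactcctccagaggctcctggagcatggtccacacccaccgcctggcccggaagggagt
Mir100hg, chr9:41474643-41474942, plus strand: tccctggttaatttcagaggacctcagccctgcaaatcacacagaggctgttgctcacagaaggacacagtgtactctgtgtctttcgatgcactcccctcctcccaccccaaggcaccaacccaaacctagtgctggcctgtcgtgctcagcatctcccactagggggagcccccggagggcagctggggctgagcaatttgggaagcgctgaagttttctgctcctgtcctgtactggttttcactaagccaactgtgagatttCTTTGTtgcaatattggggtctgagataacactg
Gm46645, chr19:15340298-15340597, minus strand: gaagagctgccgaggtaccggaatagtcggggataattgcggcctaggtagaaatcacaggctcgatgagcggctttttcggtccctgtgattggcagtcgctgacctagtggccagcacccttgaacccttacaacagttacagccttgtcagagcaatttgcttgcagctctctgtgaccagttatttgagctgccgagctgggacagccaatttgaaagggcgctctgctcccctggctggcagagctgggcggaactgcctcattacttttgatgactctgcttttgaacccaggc

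Pileup, the number of tags stacked at the summit of a peak, is given for each site from the deposited lists. Differences between passages were tested on fold enrichment over the local background after centring each library on its median site, so they are relative to that site. At the start of Gm34259 the P0 libraries had 42 and 37 tags and the P8 libraries 9 and 13. The fold enrichments as deposited were 11.5 and 12.2 at P0 against 4.94 and 7.07 at P8. Both P0 values lay above both P8 values on each scale, and the centred log2 difference, P8 minus P0, was -0.73 (SE 0.183, limma adjusted p = 0.0188). At the start of Gm36769, in the desert between Gja1 and Hsf2, the pileups were 29 and 26 at P0 and 12 and 14 at P8, with a centred log2 difference of -0.56 (SE 0.163, limma adjusted p = 0.0377). At the start of 4930579D09Rik, in the desert beside Sox5, the pileups were 28 and 17 at P0 and 20 and 31 at P8, and the deposited fold enrichments were 8.11 and 6.18 against 7.84 and 10.9. The passages overlapped on both scales, and the call for P8, a log2 difference of 0.66, rests on the centring (SE 0.193, limma adjusted p = 0.0382). The start of Mir100hg had pileups of 38, 28, 15 and 25 in P0 A, P0 B, P8 A and P8 B and did not pass the test (limma adjusted p = 0.498). The site at the start of Gm46645 had pileups of 10 and 7 at P0 and no peak at P8. A RUNX core was found in 32.0% of the 50 windows against 16.6% of 32619 start windows of the RefSeq table. The shares were 16.0% against 7.85% for AP-1, 12% against 14.6% for TEAD and 18% against 18.7% for SOX. These are matches of letters in a small number of windows and were not tested. Some windows overlap each other, as those of Gm32067 do, so a motif can be counted more than once. A motif may also lie outside the site, since the window of Gm32531 shared 4 bases with its site. All 48 genes were lncRNA genes, while the comparison windows were not selected for lncRNA genes.

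Fewer desert peaks were called at P8 than at P0, while their share of all peaks overlapped between passages. Among peaks at sites with peaks in at least 2 libraries, the desert share was lower in both P8 libraries. There were 5882 and 4554 desert peaks in the P0 libraries and 3707 and 3468 in the P8 libraries, a mean of 5218 ± 939 (SD, n = 2) against 3588 ± 169. Both P0 libraries lay above both P8 libraries, with a ratio of 1.45 ± 0.271 (SD), and an exact two-sided permutation test gave p = 0.333, the smallest p that 2 libraries against 2 allow. The desert share of a library's peaks was 4.08% (95% Wilson interval 3.98 to 4.18) and 3.83% (3.73 to 3.94) at P0, and 4.19% (4.06 to 4.33) and 3.52% (3.41 to 3.64) at P8. These shares overlapped between passages (exact permutation p = 1). The intervals cover counting error only. With single-library sites left out, deserts held 3.77% (P0 A), 3.69% (P0 B), 3.05% (P8 A) and 3.09% (P8 B) of peaks. This narrower share did not overlap between passages, with a ratio of P0 to P8 of 1.22 ± 0.0216 (SD, exact permutation p = 0.333). It depends on the rule of at least 2 libraries. Depth moved with passage, since the lowest local background was 1.42 and 1.18 tags in the P0 libraries and 1.02 and 0.979 in the P8 libraries. With the pileup and background of the called peaks scaled to the library of lowest background, and a common p limit applied, the ratio of desert peaks was 1.40. Peaks were not called anew, so this does not equalise depth. In bulk libraries, a lower peak in every cell and an open site in fewer cells cannot be told apart.

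**Figure D1:**
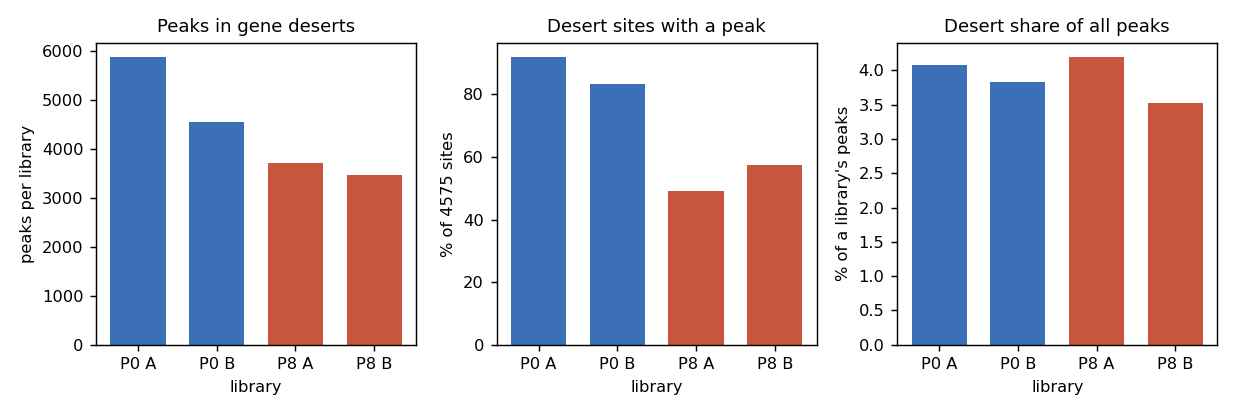
Bars give, for each of the 4 libraries (P0 in blue, P8 in red), the number of peaks in gene deserts, the percentage of the 4575 desert sites with a peak, and the percentage of all peaks of the library that lay in deserts. The P0 libraries had more desert peaks (5882 and 4554) than the P8 libraries (3707 and 3468). The desert share of all peaks, single-library sites included, overlapped between passages.

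Many desert peaks were seen in a single library and so fell outside the rule. Sites with a peak in 1 library made up 46.9% of all 8619 desert regions with any peak, against 33.0% of all merged sites. They held 1567 and 530 of the desert peaks at P0 and 1281 and 666 at P8. A peak was present at 91.9% and 83.2% of desert sites in the P0 libraries and at 49.0% and 57.4% in the P8 libraries. The same figures for all other sites were 96.3% and 88.5% at P0 and 60.4% and 69.9% at P8. These percentages depend on the rule, which asks for peaks in at least 2 libraries, and are given as a description.

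The shares of P0-only and P8-only sites were both higher in deserts than over all sites, and the share open in all 4 libraries was lower. Of the 4575 desert sites, 1727 (37.7%) were P0-only, a pattern held by 25.5% of all sites. P8-only sites numbered 318 in deserts (6.95%), against 2.72% of all sites. All 4 libraries had a peak at 1497 desert sites (32.7%), against 48.4% of all sites. The remaining desert sites had peaks in 3 libraries (737) or in 1 library of each passage (296). P0-only desert sites outnumbered P8-only desert sites 5.43 times, against 9.41 times over all sites. After the same rescaling of called peaks the shares of desert sites were 37.1% P0-only and 7.52% P8-only, against 25.0% and 2.95% of all sites. A missing peak means that the site did not pass the peak caller in that library and not that its signal was 0. Without P0 library A, P8-only desert sites numbered 508 (19.5%, against 8.81% of all sites), since 1 P0 library alone then had to lack a peak. All sites are the 114130 sites, deserts included, and the shares were not tested because sites are not replicates.

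The pattern by passage differed between classes of distance from genes. Among sites outside genes and 10 to 50 kb from a gene end, 45.6% had peaks in all 4 libraries, 25.8% were P0-only and 3.12% were P8-only. The shares were 39.4%, 30.7% and 4.42% at 100 to 250 kb. They were 34.7%, 35.5% and 6.06% at 250 to 500 kb, and 29.7%, 41.6% and 8.05% at 500 to 1000 kb. Beyond 1000 kb they were 24.3%, 45.7% and 11.8%. Just inside the limit of the rule, at 250 to 300 kb, 34.4% of 1018 sites were P0-only and 5.99% P8-only, and just outside it, at 200 to 250 kb, 30.6% of 1400 sites were P0-only and 4.71% P8-only. Distant sites were also weaker, with a median highest pileup of 14 tags beyond 1000 kb and 17 tags at 10 to 50 kb. Among sites whose highest pileup was 11 to 17 tags in both classes, the P0-only share was 38.5% at 10 to 50 kb and 55.3% beyond 1000 kb, and the P8-only share was 4.27% and 12% (150 sites). These shares are descriptions.

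**Figure D2:**
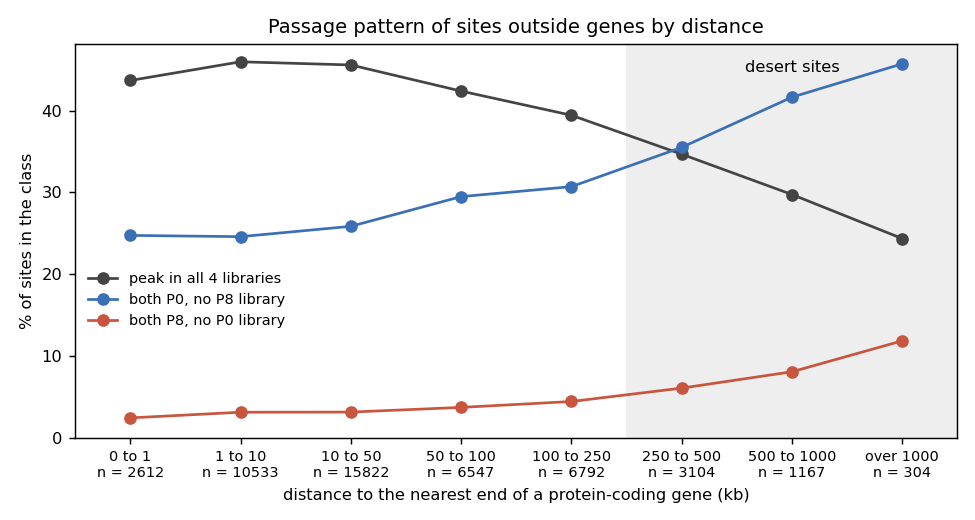
Lines give the percentage of sites outside protein-coding genes that had peaks in all 4 libraries (dark grey), were P0-only (blue) or were P8-only (red), by distance to the nearest gene end in kb, with the desert classes shaded. The share open in all 4 libraries was 45.6% at 10 to 50 kb and 24.3% beyond 1000 kb, while the P0-only share was 25.8% and 45.7%.

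The 3 patterns differed in strength. Desert sites open in all 4 libraries had median pileups of 23 and 19 tags in the P0 libraries and 14 and 15 in the P8 libraries, and a median width of 386 bp. P0-only desert sites had median pileups of 12 and 11 tags and a median width of 222 bp. P8-only desert sites had median pileups of 10 and 9 tags, a median width of 180 bp and a highest pileup of 20 tags at any site. Within classes of equal highest pileup the difference from other sites varied. At 6 to 10 tags, 18.6% of 775 desert sites were P8-only, against 11% of other sites, and 48.3% against 47.2% were P0-only. Among sites whose highest pileup was 11 to 13 tags, 12.6% of 1084 desert sites were P8-only, against 5.57% of 17298 other sites, and 52.9% against 45.5% were P0-only. At 14 to 17 tags the P8-only shares were 3.37% and 2.51%, and the P0-only shares 44.6% and 37.1%. At 18 to 24 tags the P8-only share was lower in deserts, 0.467% against 0.748%, while 31.0% against 22.8% were P0-only. From 25 tags upwards, 0 of 882 desert sites were P8-only, against 46 of 39317 other sites (0.117%), 8.96% against 5.55% were P0-only, and 79.8% against 86.8% were open in all 4 libraries.

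P8-only desert sites lay close to other open sites. The median distance to the nearest merged site of any kind was 0.304 kb for P8-only desert sites, 7.03 kb for P0-only and 4.30 kb for those open in all 4 libraries. Another site lay within 1 kb of 191 of the 318 P8-only desert sites (60.1%), against 24.9% of P0-only desert sites and 48.2% of P8-only sites elsewhere. That neighbour had peaks in P8 libraries only in 163 of the 191 cases, and in a single library in 136.

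Chromosome X had the highest P8-only share among desert sites. Of 102 desert sites on X, 26 were P8-only (25.5%), spread over 16 deserts. On the autosomes 292 of 4473 desert sites were P8-only (6.53%), with a range from 3.61% on chromosome 11 to 9.87% on chromosome 5. Outside deserts, 90 of 2432 sites on X were P8-only (3.70%). The P8-only sites on X had pileups of 7 to 14 tags and widths of 87 to 417 bp.

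The strongest desert site open in all 4 libraries was at chr6:9889876-9890228, 640 kb from Nxph1, a secreted neuronal glycoprotein, and 2010 kb from Ndufa4, which codes for a mitochondrial protein. Its pileups were 134, 134, 108 and 107 tags in P0 A, P0 B, P8 A and P8 B, and its fold enrichments were 38.2, 37.8, 36.4 and 37.6. Both P0 values lay above both P8 values also in uncentred fold enrichment, while the centred log2 difference had the opposite sign, 0.23, and did not pass the test (limma adjusted p = 0.0511). The site at chr12:97061364-97061854, between the adhesion protein gene Flrt2 and the lysosomal enzyme gene Galc, had pileups of 145, 146, 139 and 138. Its fold enrichments were 25.3 and 25.1 at P0 against 26.6 and 26.9 at P8, so the pileup went the other way. It was called higher at P8, with a centred log2 difference of 0.36 (SE 0.0918, limma adjusted p = 0.0204). The highest pileup was 146 tags both at desert sites and at other sites open in all 4 libraries. Whether a limit held down pileups near that value, at this or other sites, was not tested. The site at chr5:60042660-60043130, between the protocadherin gene Pcdh7 and G6pd2, had pileups of 106, 112, 75 and 76. Its fold enrichments lay closer together, at 25.2, 26.5, 24.2 and 24.8. The centred log2 difference was 0.195 (SE 0.0942) and did not pass the test (limma adjusted p = 0.196). The sites between Gpd2 and Galnt5 and between Mc2r and Tcf4 had pileups of 75 to 78 and 49 to 62 over the libraries and overlapped between passages.

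The strongest P0-only desert site was at chr5:54937133-54937403, between the calcium sensor gene Stim2 and Pcdh7, with pileups of 44 and 37 tags and fold enrichments of 18.6 and 17.4. Next came a site at chr10:47102604-47103032, between the ubiquitin ligase gene Hace1 and the glutamate receptor gene Grik2, with a pileup of 39 in both P0 libraries. The other named P0-only sites lay between Zfp326 and Barhl2 and between Reg3g and Gm20594. Their pileups were 28 to 35 tags. The strongest P8-only site, at chr5:85018754-85018929 between Gm42163 and Cenpc1, had pileups of 14 and 20 tags and fold enrichments of 7.42 and 10.6. The other 4 named P8-only sites lay between Rbfox1 and Tmem114, Slitrk5 and Gpc5, Cxxc4 and Tacr3, and Frg1 and Triml1. They had pileups of 11 to 17 tags. All 5 P8-only sites lay below the 28 tags that were the lowest value among the named P0-only sites.

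**Figure D3:**
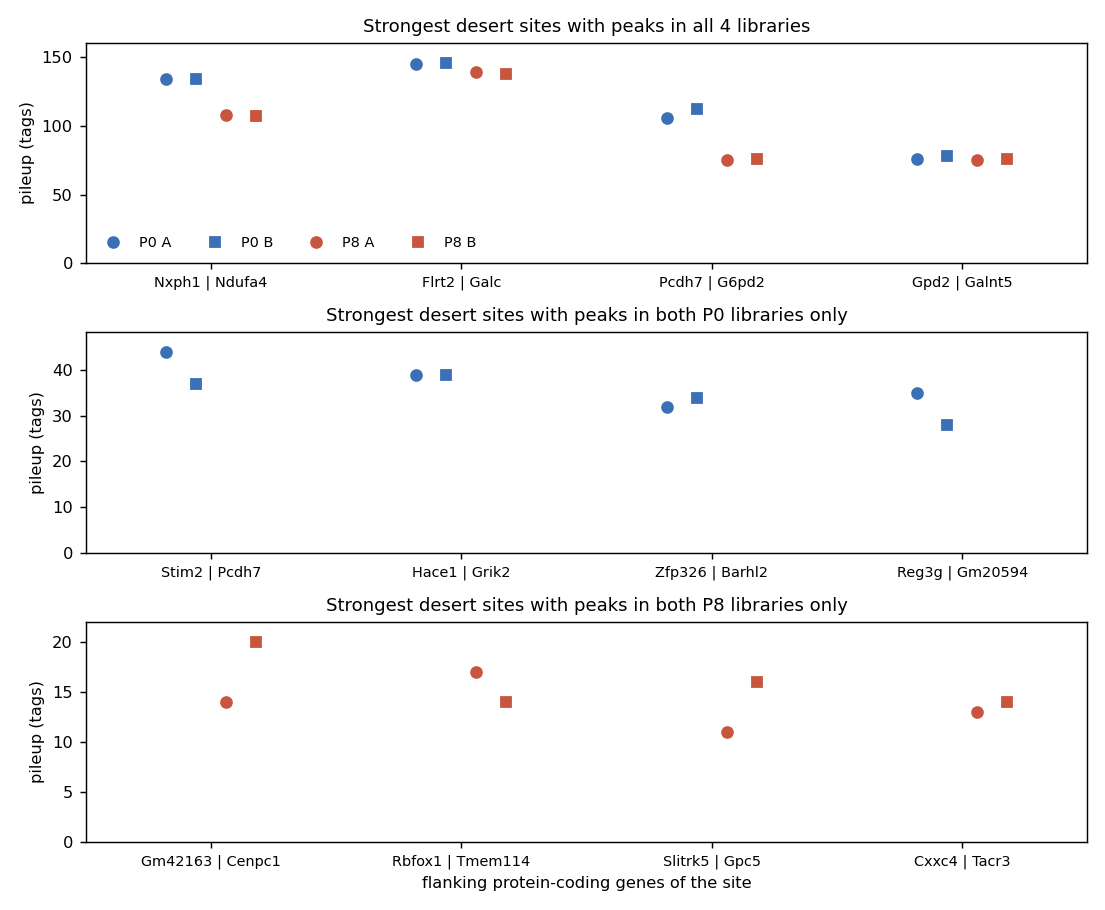
Points give the pileup in tags at the summit for the 4 desert sites of highest mean fold enrichment in each pattern, in P0 library A and B (blue circle and square) and P8 library A and B (red circle and square), each site being named by its flanking protein-coding genes. The sites open in all 4 libraries reached 146 tags, the P0-only sites 44 and the P8-only sites 20, with a separate scale in each panel.

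Desert sites were unevenly spread over the stretches between genes. Of 655 stretches longer than 500 kb between neighbouring protein-coding genes, 546 held a desert site, with a median of 5 sites and a maximum of 53, and 109 held none. The 168 stretches with 10 or more sites held 3056 of the sites. P0-only sites outnumbered P8-only sites in 401 of the 550 stretches, and P8-only sites were more numerous in 46. The most sites, 53, lay between Slc10a2, a bile acid transporter of the ileum, and Efnb2, which codes for the guidance ligand ephrin-B2. Of these, 22 were P0-only, 1 was P8-only and 16 were open in all libraries. The desert between Zeb2, a zinc finger repressor, and Acvr2a, an activin receptor, held 51 sites (16 P0-only, 3 P8-only, 17 in all 4). The desert downstream of Myc, towards Gsdmc, held 47 (16 P0-only, 1 P8-only, 19 in all 4), and its highest site had pileups of 65, 51, 37 and 40 tags in P0 A, P0 B, P8 A and P8 B.

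The desert before Dad1 on chromosome 14 held 44 sites, of which 26 were P0-only, 0 were P8-only and 5 were open in all libraries. All 44 lay within the span of 118 V segments of the T cell receptor alpha and delta loci, which RefSeq does not class as protein-coding, and 43 lay within 5 kb of a V segment. A peak was called at 43 and 42 of the 44 sites in the P0 libraries and at 13 and 12 in the P8 libraries, counts that follow in part from the rule, since 26 sites entered through the P0 libraries alone. The other stretches among the 10 richest had 32 to 36 sites. They were flanked by Nmbr and Cited2, a regulator of CBP/p300, by Agtr1b and Tbl1xr1, by Klf4 and Actl7b, by Gja1, the gene of connexin 43, and Hsf2, by Rps24 and Zmiz1, and by the start of chromosome 9 and Alkbh8. Among those with a gene on both sides, the desert between Rps24 and Zmiz1 was the densest, with 69.4 sites per Mb, 14 P0-only and 0 P8-only. No density was computed for the stretch at the start of chromosome 9.

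The 36 sites at the start of chromosome 9 stood apart. They lay within chr9:3000054-3038242, and 24 of them were open in all 4 libraries. The local background reached 79.9 tags there, and fold enrichments were low although pileups were high. At chr9:3024408-3024599, pileups were 141, 137, 129 and 124 tags and fold enrichments were 1.80, 1.75, 2.23 and 2.20. The counts of clusters are given below with and without them. The counts of called sites are given with and without all sites of high local background, these 36 among them.

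Among the 5 deserts with most P0-only sites, the one between the cadherin genes Cdh6 and Cdh9 had the highest share. Of its 21 sites, 18 were P0-only, 0 were P8-only and 1 was open in all libraries, so that the P0 libraries had a peak at all 21 and each P8 library at 2. The deserts with most P8-only sites held fewer sites in all. The desert between Gdf6, a BMP family ligand needed for joint formation, and 2610301B20Rik held 16 sites, of which 7 were P8-only and 4 P0-only. Peaks were called at 9 and 8 of them in the P0 libraries and at 11 and 12 in the P8 libraries. The desert between Lrfn5, a synaptic adhesion gene, and Fscb held 9 sites, 7 of them P8-only and 1 P0-only. The deserts between Snx16 and Ralyl, Slc39a10 and Tmeff2, and Hace1 and Grik2 held 5 to 6 P8-only sites each beside 4 to 7 P0-only sites. The counts in a single desert are small, and these deserts were chosen for them. Neighbouring peaks that did not overlap were counted as separate sites. P8-only sites lay close together between Lrfn5 and Fscb (chr12:62176787-62176989 and chr12:62177008-62177685) and between Snx16 and Ralyl (chr3:10713673-10713985 and chr3:10714166-10714451). The same held between Hace1 and Grik2 (chr10:46586880-46587219 and chr10:46587514-46587759) and beside Gdf6 (chr4:10136992-10137278 and chr4:10137492-10137677).

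**Figure D4:**
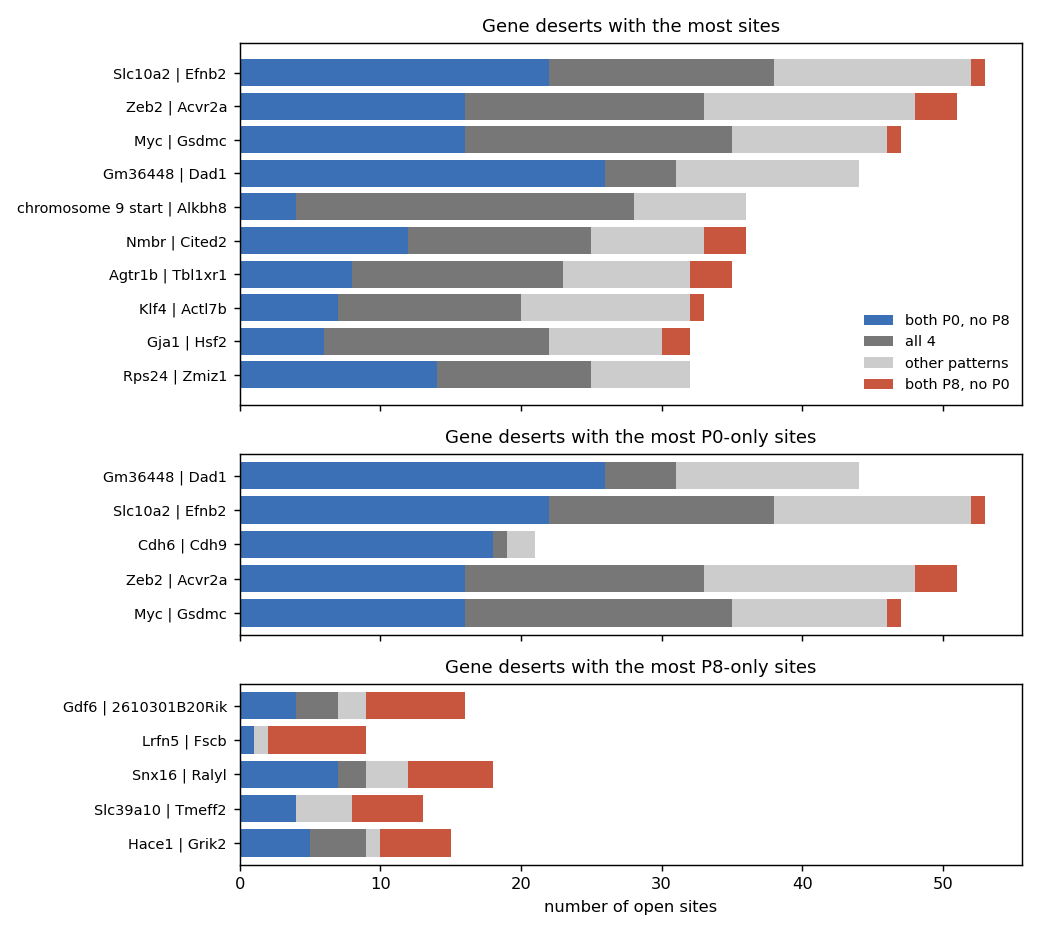
Stacked bars give the number of open sites in the deserts with the most sites, the most P0-only sites and the most P8-only sites, each named by its flanking genes and divided into sites with peaks in both P0 libraries only (blue), all 4 libraries (dark grey), other patterns (light grey) and both P8 libraries only (red). The desert between Slc10a2 and Efnb2 held 53 sites, and the desert between Cdh6 and Cdh9 had 18 P0-only sites of 21. The desert between Lrfn5 and Fscb had 7 P8-only sites of 9, with neighbouring peaks that did not overlap counted separately.

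Flanking genes were grouped by function, in lists chosen with earlier results of these data known, so the shares by list are descriptions. Of 74 transcription factors of skeleton and limb, 39 flanked a stretch longer than 500 kb (52.7%), as did 48 of 60 neuronal adhesion and synaptic genes (80.0%), against 5.38% of all 21631 protein-coding genes. The 46 deserts beside these transcription factors held 461 sites at 24.7 per Mb, with a median of 8.5 sites. Of the 461, 34.5% were P0-only, 4.99% P8-only and 36.2% open in all libraries. The 65 deserts beside neuronal genes held 550 sites at 5.59 per Mb, with a median of 6, of which 46.9% were P0-only, 8.00% P8-only and 26.5% open in all libraries. The median over all 655 deserts was 4 sites, with 10.2 per Mb, 38.0% P0-only, 6.97% P8-only and 32.4% in all libraries. Stretches beside neuronal genes were mostly longer than those beside the transcription factors, and the patterns differed by distance from genes as given above. Length was not matched between groups, and its part in these values was not tested. A stretch flanked by genes of different lists, such as that between Csmd3 and Trps1, counts in each.

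Among the skeletal transcription factors, Irx1 had 28 sites towards Adamts16 (5 P0-only, 15 in all libraries) and Runx1, a regulator of blood and of early cartilage, had 16 towards Setd4 (2 P0-only, 11 in all libraries). Tshz1 had 14 towards Zfp516, of which 12 were P0-only. The desert before Sox9 held 22 sites, 9 P0-only, 0 P8-only and 10 open in all libraries, and its highest site, at chr11:112298864-112299462, had pileups of 44, 42, 16 and 21 tags in P0 A, P0 B, P8 A and P8 B. Sox5, the partner of Sox9 in cartilage, had 8 sites towards Etnk1 (5 P0-only, 0 P8-only), and Sox6 had 9 towards Insc (3 P0-only, 0 P8-only).

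The 15 deserts beside cartilage signalling genes held 84 sites, of which 25.0% were P0-only and 15.5% P8-only, at a median of 3 sites. Of the 13 P8-only sites, 7 came from the Gdf6 desert. Fgf9, a ligand for FGF receptors in cartilage, had 17 sites, 2 of them P0-only and 10 open in all libraries, and Bmp4 had 9 towards Ddhd1, with 5 open in all libraries. The 17 deserts beside matrix genes held 158 sites, with 27.8% P0-only, 3.80% P8-only, 38.0% open in all libraries and a median of 6. Tnc, which codes for tenascin C, had 24 sites towards Pappa (8 P0-only, 0 P8-only). The aggrecanase gene Adamts5 had 23 towards N6amt1 (2 P0-only, 1 P8-only, 15 in all libraries), and Thbs1, the gene of thrombospondin 1, had 21 towards Rasgrp1 (4 P0-only, 0 P8-only, 11 in all libraries). The 6 deserts beside AP-1, stress and mechanosensitive genes held 69 sites, 31.9% P0-only and 5.80% P8-only, with a median of 9. Of these 69, 33 flanked Klf4 and 28 flanked Klf6, while the deserts beside Jun and Nr4a3 held 0.

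The desert between Ubash3b and Gm40514 on chromosome 9 holds the microRNA cluster of miR-100, let-7a-2 and miR-125b-1, which is transcribed within the lncRNA Mir100hg. All 24 of its desert sites lay inside Mir100hg, 11 of them open in all libraries, 5 P0-only and 1 P8-only. A mature strand of each microRNA is printed from 5′ to 3′. The seed, bases 2 to 8, is in capitals to show that these seeds differ. For let-7a-2 the strand of the 3′ arm is shown, since the sequences used held no strand of its 5′ arm. The 3′ arm strands of miR-100 and miR-125b-1 are not printed.
miR-100-5p, chr9:41531437-41531458, plus strand: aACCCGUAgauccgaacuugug
miR-125b-5p, chr9:41581940-41581961, plus strand: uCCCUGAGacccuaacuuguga
let-7a-2-3p, chr9:41536777-41536797, plus strand: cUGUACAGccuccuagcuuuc
No desert site overlapped these hairpins. The nearest lay 1350 bases from the miR-100 hairpin, 3268 from let-7a-2 and 506 from miR-125b-1.

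Sites open in all 4 libraries were compared by signal. The log2 fold enrichment of each site was centred on the median of its library and tested by limma over all 55259 sites with a peak in every library, of which 1497 were desert sites. Higher signal at P0 was called at 130 desert sites (8.68%), where 3.75% of all sites tested were called, and higher signal at P8 at 200 (13.4%), where 6.2% of all were called. The threshold was an adjusted p of 0.05. With quantile normalization 110 desert sites were called for P0 and 95 for P8, where 3.05% and 2.39% of all sites were called. Over all 1497 desert sites the median log2 difference, P8 minus P0, was 0.08, against 0.07 over all sites tested, and 637 sites (42.6%) were lower at P8, against 41.7% of all. A call is relative to the median site of its library, whose fold enrichment was 8.28 and 8.09 in the P0 libraries against 6.43 and 7.15 in the P8 libraries. All differences and folds in the following paragraphs are of centred fold enrichment. At all 130 sites called higher at P0, both P0 pileups were above both P8 pileups. Of the 200 called higher at P8, both P8 pileups were above both P0 pileups at 95, and the uncentred fold enrichment was higher in both P8 libraries at 190. Without P0 library A 40 desert sites were called for P0 and 82 for P8, beside 0.901% and 2.35% of all sites. Without P0 library B 7 and 13 were called, beside 0.0941% and 0.221% of all sites. Sites of high local background, over 10 tags, were also left out in and outside deserts, 40 of them desert sites. In that setting 1469 desert sites were tested, with 120 higher at P0 and 153 higher at P8. The shares of all sites were 3.40% and 4.97%. Of the 200 called higher at P8 in the main fit, 22 lay at the start of chromosome 9.

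Among sites higher at P0, the one with the lowest p lay at chr2:123677647-123678133, between Sqor and the semaphorin gene Sema6d, with pileups of 43 and 44 tags at P0 and 9 and 11 at P8. Its deposited fold enrichment was 17.3 and 18.9 at P0 against 4.94 and 6.06 at P8, and the centred value was 2.74-fold lower at P8 (log2 difference -1.45, SE 0.160, limma adjusted p = 0.000326). A site at chr15:17801334-17801834, between the cadherin genes Cdh9 and Cdh10, had 44 and 41 tags at P0 and 10 and 9 at P8 (centred log2 difference -1.43, SE 0.167, limma adjusted p = 0.000490). A site between Agtr1b and Tbl1xr1 had 35 and 36 tags against 8 and 9, and its centred fold enrichment was 2.70-fold lower at P8. The other 7 of the 10 lowest p values included sites between Celf4 and Pik3c3, Pudp and Prr16, Marcks and Rfpl4b, and Klhl29 and Apob. The rest of the 7 lay between Diaph2 and Pcdh19, Pabpc4l and Pcdh18, and Cntnap5b and Cdh20. These 7 sites had 31 to 48 tags at P0, 8 to 13 at P8 and folds in centred fold enrichment of 2.13 to 2.42. In each of these 10 sites the pileups of the passages did not overlap. Over the 130 sites the centred fold ranged from 1.35 to 2.74 with a median of 1.67.

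Among sites higher at P8, the lowest p was at chr12:15253552-15253865, between Lratd1 and the pseudokinase gene Trib2, with pileups of 19 and 12 at P0 and 29 and 28 at P8 (centred log2 difference 1.33, SE 0.174, limma adjusted p = 0.000807). A site at chr11:18331712-18332289, between Etaa1 and the homeobox gene Meis1, had 11 tags in both P0 libraries and 30 and 19 at P8, with a centred fold enrichment 2.70-fold higher at P8. A site at chr6:143559399-143559683, 269 kb from Sox5, had 13 and 10 tags at P0 and 21 and 17 at P8. Its deposited fold enrichment was 4.52 and 4.53 against 10.9 and 8.74, and the centred value was 2.60-fold higher at P8. The largest fold in centred fold enrichment, 3.75, was at chr2:46281839-46282247, between Zeb2 and Acvr2a, with 7 and 11 tags at P0 and 36 and 18 at P8. The site beside Fmr1 on chromosome X had 36 and 33 tags at P0 and 43 and 48 at P8. Its deposited fold enrichment was 15.3 and 15.6 against 21.2 and 23.7, and the centred value was 1.75-fold higher at P8. Of the others among the 10 lowest p values, 2 lay at the start of chromosome 9. The rest lay between Brinp3 and Pla2g4a, Gm6749 and Grm7, and Ptprd and Tyrp1. The site between Ptprd and Tyrp1 had a deposited fold enrichment of 14.7 and 15.1 at P0 against 19.9 and 20.5 at P8. This was a 1.64-fold difference after centring. Its pileups were 81 and 82 at P0 and 68 and 71 at P8, so the raw pileup went the other way.

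By group of flanking genes, 6 of 167 desert sites beside skeletal and limb transcription factors were called higher at P0 (3.59%) while 28 had higher signal at P8 (16.8%), at a median log2 difference of 0.18. The corresponding counts were 17 and 18 of 146 beside neuronal genes, with a median of 0.06. They were 3 and 4 of 31 beside cartilage signalling genes (median 0.22), 4 and 5 of 60 beside matrix genes (median 0.12), and 0 and 5 of 24 beside AP-1, stress and mechanosensitive genes (median 0.37). Over all 1497 desert sites the shares were 8.68% and 13.4%, and over all sites tested 3.75% and 6.2%. The P0 share beside skeletal factors was thus near that of all sites. These counts by group were made with median centring alone, and with quantile normalization the desert calls for P8 numbered 95 in all. Beside skeletal factors the calls higher at P0 were in the deserts of Osr1, Tshz1, Gli3, Meis1 (2 sites) and Zfhx4. The Osr1 site, towards Nt5c1b, had 25 and 21 tags at P0 and 7 and 8 at P8, with a centred fold enrichment 2.03-fold lower at P8. The calls higher at P8 included 5 of the desert between Adamts16 and Irx1. In the Sox9 desert 1 site was called, higher at P8, with 9 and 8 tags at P0 and 11 and 9 at P8, a 1.60-fold difference in centred fold enrichment. Beside Bmp2, 2 sites towards Hao1 were called higher at P0, with 58 and 50 tags against 18 and 20, and 53 and 44 against 17 and 19.

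**Figure D5:**
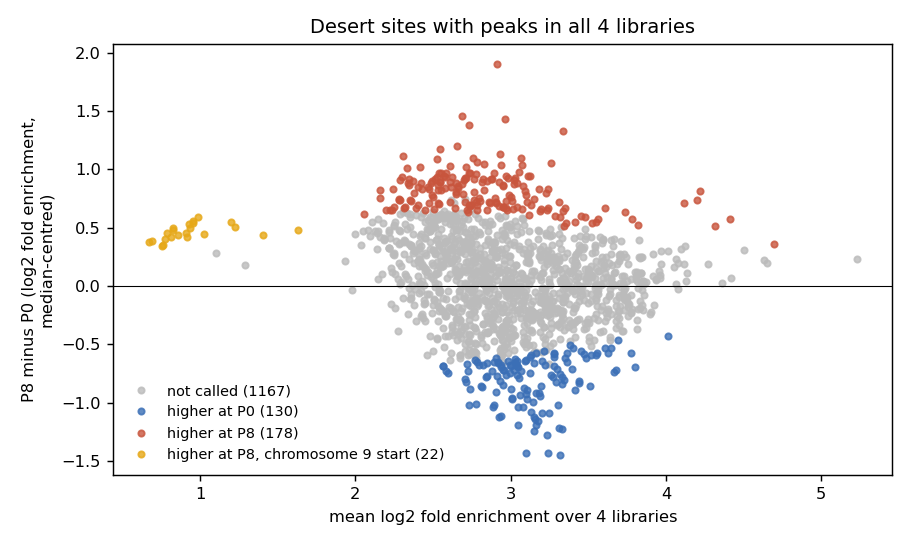
Each point is a desert site with peaks in all 4 libraries, placed by its mean log2 fold enrichment and by the difference P8 minus P0 in median-centred log2 fold enrichment. Sites called by limma at an adjusted p of 0.05 are coloured, with 130 higher at P0 (blue) and 200 higher at P8 (red and yellow), of which the 22 in yellow lay at the start of chromosome 9, where fold enrichment was low.

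The cell type of the libraries was checked by peaks within 1 kb of a gene end. All 8 chondrocyte markers, Col2a1, Acan and Sox9 among them, had a peak in every library. Of 5 fibroblast markers, 5 had a peak in each P0 library and 4 and 3 in the P8 libraries. Ptprc, Csf1r and Adgre1 of the macrophage and blood list and Pecam1 and Cdh5 of the endothelial list had none in any library. In the P0 A, P0 B, P8 A and P8 B libraries, a peak was found at 2, 2, 1 and 1 of 4 osteoblast markers, 2, 2, 1 and 1 of 5 macrophage and blood markers and 2 of 4 endothelial markers in each. The counts were 2, 1, 1 and 1 of 3 muscle markers, 2, 1, 0 and 1 of 3 epithelial markers and 3 of 3 neuronal markers in each. A peak at a gene end is not a measure of expression, and the part of other cells in the results was not tested.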

How the data were processed

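ATAC-seq peak lists of 2 P0 and 2 P8 libraries were used. Per the labels and the methods of the study, the authors aligned 50 bp paired reads to mm10 (Bowtie2) and ran MACS2 with default settings for every library, with versions not given in the sources used here. The authors deposited for each peak the pileup, a signal in tags not scaled for depth, its fold enrichment (ratio) over local background, and the −log10 of p and q. A further deposited list holds the authors' comparison of the passages (fold changes and p-values) and was not used. No column of values per sample was left unused (0 columns).

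The prefix of a peak's name gave its library but no replicate number. Peaks overlapping by at least 1 bp were merged, and sites were placed against 21631 protein-coding genes of RefSeq GRCm38.p6 on chromosomes 1 to 19 and X. Transcript start windows and microRNAs were RefSeq sequences of GRCm38.p6. No sequence of other sites was read. The local background was computed from pileup and fold enrichment, and its lowest value stands for depth.

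Values per library were compared by exact two-sided permutation tests. Sites with peaks in all 4 libraries were tested with limma 3.58.1 (R 4.3.3, mean-variance trend, Benjamini-Hochberg) on the highest fold enrichment of a site in each library, so sites without a peak in some library are not in this test. On simulated data limma recovered 90.0% of log2 changes of 1 and 100% of log2 changes of 2 over 55259 sites. In that run 5.47% of 201 calls were false. The noise was normal with a common SD for sites of similar mean, and no log2 change below 1 was simulated. These rates need not hold for the real calls. Named deserts were the 10 with most sites and the 5 with most P0-only and most P8-only sites, named sites the 5 of highest mean fold enrichment in each pattern (1 P0-only site is not reported here) and the 10 of lowest p in each direction, and flanking genes came from 5 lists. The deserts of Ubash3b and Sox9 and the sites at transcript starts were chosen after their values were seen, and of the flanking genes on the lists those with many or few sites were named. The members, lists and tests were chosen with earlier results of these data known. Alternatives were the distance limit, genes of every biotype, the number of libraries, stricter q, called peaks rescaled to the lowest background, summit windows, other scalings and leaving out each library.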

Additional observations from a re-analysis of the deposited data

How the results depend on the processing

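The count of desert sites follows from the rule. It was 11367 over 100 kb, 1471 over 500 kb, 188 with genes of every biotype, 8619 with a peak in at least 1 library, 2234 with peaks in at least 3 and 3012 with a −log10 q of at least 5, and 2609 and 2826 without P0 library A and B. P0-only sites numbered 3812, 625 and 89 over 100 kb, over 500 kb and with every biotype, P8-only sites 618, 130 and 14, and sites open in all libraries 4175, 421 and 53. With the stricter q P8-only sites numbered 116, 3.85% of desert sites against 2.13% of all. In each of these settings that gives both classes, the P0-only and P8-only shares were above those of all sites. Rescaling called peaks to the lowest background and summit windows of 200 bp moved no count by over 1.5 times. Of the limma results, calls higher at P0 and P8 were 304 and 449 of 4175 desert sites over 100 kb. Over 500 kb they were 45 and 56 of 421. In both settings 3.75% and 6.2% of all sites tested were called. Among sites with a mean fold enrichment above the median, 79 and 58 of 827 desert sites were called, beside 3.57% and 2.58% of all. Calls higher at P8 were 95 with quantile normalization, beside 2.39% of all sites. With pileup, calls higher at P0 and P8 were 161 and 332 of 1497 desert sites, beside 8.93% and 13.6% of all sites. The median log2 difference was 0.027 with quantile normalization, 0.17 with pileup and -0.030 among sites above the median, where its sign was the opposite. Leaving out each library in turn gave 2609 to 4189 desert sites, a peak ratio of 1.27 to 1.64, a difference in desert share of -0.44 to 0.24 percentage points, 1878 to 2108 P0-only, 339 to 508 P8-only and 1520 to 1874 sites open in all that remained, 7 to 168 calls higher at P0 (40 and 7 without P0 library A and B), 13 to 222 higher at P8 (82 and 13) and a median of 0.04 to 0.11. In these limma fits the lone library of a passage is assumed to vary like the others. Apart from the fewer sites or libraries that a setting itself leaves, the cause was not tested. Leaving out a P0 library gives no P0-only count and leaving out a P8 library no P8-only count, since 2 libraries are needed, and the same holds for peaks in at least 3. Leaving out sites of high local background in and outside deserts (40 in deserts), chosen after seeing the data, moved no count by over 1.5 times. Other values stayed within their spread or 1.5 times. No paired analysis was possible because the peak names carry no replicate number. The limit that depth sets on weak sites was not tested.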

Other observations

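Desert sites also occurred in clusters. When sites at most 12.5 kb apart were joined, the 4575 desert sites gave 3151 clusters, 2251 of them single sites and 53 with 5 or more sites. Of the sites standing alone, 41.7% were P0-only, 8.00% P8-only and 28.6% open in all 4 libraries. In clusters of 5 or more the shares were 26.8%, 3.57% and 44.0% over 336 sites, of which 36 lay at the start of chromosome 9. Without that place they were 28.7%, 4.00% and 41.3% over the other sites of such clusters, a comparison added after seeing the data. Apart from that place, the largest cluster held 10 sites over 33.3 kb between Klf4 and Actl7b. Of these sites 5 were P0-only and 2 open in all libraries. A cluster of 9 sites over 29.5 kb lay between Veph1 and Shox2, a homeobox gene of the limb skeleton. It had 3 P0-only and 2 P8-only sites and 0 open in all libraries. A cluster of 8 sites lay between Trib2 and Lpin1 (4 in all libraries). A cluster of 7 lay between Tnc and Pappa (4 P0-only). Clusters of 6 lay between Osr1 and Nt5c1b (3 P0-only) and between Fgf9 and 1700129C05Rik, where all 6 were open in all libraries. These clusters were chosen after their values were seen.

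RefSeq lncRNA genes covered 771 desert sites, of which 33.9% were P0-only, 2.59% P8-only and 38.4% open in all libraries, against 37.7%, 6.95% and 32.7% of all desert sites.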
